A study of Mus musculus and Rattus norvegicus with 96 samples.

Results

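Carboxylesterases were followed here through 10 genes of the mouse liver, Ces1b, Ces1c, Ces1d, Ces1e, Ces1f, Ces1g, Ces2a, Ces2c, Ces2e and Ces3a. They were chosen by name, as 10 of the 24543 genes in the count table of the first of the series' studies. All 10 were kept by the filter on low counts, which left 13370 genes. The livers came from 12 male B6C3F1 mice aged 10 to 11 weeks, of which 6 drank water (Con) and 6 drank water with 600 ppm phenobarbital (PB) for 7 days. Every liver, as pieces of the left lateral, caudate and right medial lobes, was prepared in 4 ways. One portion was frozen and stored frozen (FR). Further portions of the frozen tissue were fixed in 70% ethanol (FR > OH) or in 10% neutral buffered formalin (FR > FFPE) and then embedded in paraffin. A separate fresh portion went directly into 10% neutral buffered formalin and then into paraffin (FFPE). This gave 8 groups of 6 libraries of total RNA, 48 in all, and the 4 libraries of a mouse share that animal. FR RNA was extracted with RNAzol and the RNA of the 3 paraffin preparations with a kit made for fixed tissue, so preparation and extraction cannot be told apart in comparisons with FR.

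Carboxylesterases are serine hydrolases that hepatocytes hold mainly in the lumen of the endoplasmic reticulum. They cleave ester and amide bonds in drugs, in pesticides and in stored lipids such as triacylglycerols. Mice carry many more of these genes than people do, in clusters that arose by tandem duplication. Phenobarbital activates the nuclear receptor CAR, which raises the transcription of Cyp2b10 and of other genes for drug metabolism in the liver.

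The column totals ran from 4952797 to 13702672 estimated counts, and values are given below as CPM, counts scaled to a common column total of 1000000. Each library matched its treatment label, since Cyp2b10 did not pass 2.45 CPM in any of the 24 Con libraries and the lowest of the 24 PB libraries held 1078 CPM. The libraries differed by preparation in more than the genes of interest. The 45S ribosomal precursor Rn45s took 4206 to 13055 CPM in FR and 81270 to 127578 CPM in FFPE, and FFPE PB reached total counts of 4952797 to 6760422 against 11823080 to 13702672 in FR PB. The median sum of 6 hepatocyte markers was 76642 CPM in FR Con but 34671 CPM in FFPE Con. That of 4 Kupffer cell markers was 308 and 180 CPM, and that of 4 endothelial markers 464 and 568 CPM. Of 4 adipocyte markers, Adipoq and Plin1 stayed under 1 CPM in every library and the 4 summed to 0.98 to 7.70 CPM. Among them Fabp4 was called in FR > OH, higher in PB (log2 fold change 1.19, adjusted p = 0.0131) and, in Con, lower than in FR (-1.46, adjusted p = 0.000275). In that comparison with FR in Con, 4 of 4 endothelial markers (median -0.74) and 3 of 4 Kupffer cell markers (median -0.65) were also lower by adjusted p. So were 3 of 6 hepatocyte markers (median -0.33) and 2 of 4 stellate cell and fibroblast markers (median -0.47). Of 4 bile duct markers 1 was higher. In the same comparison 6398 of all 13370 genes had an unadjusted edgeR p under 0.05, in either direction. The part of these markers in the FR > OH results was not tested. In bulk liver, fewer hepatocytes, less RNA per hepatocyte and a change in the rest of the CPM total, such as Rn45s, cannot be told apart. Nor can these be told apart from preparation and extraction of the RNA in comparisons with FR.

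All 10 genes lie on chromosome 8 (GRCm38), in a pair of clusters. Ces1b to Ces1g run along the minus strand from chr8:93056727-93080017 for Ces1b to chr8:93302369-93337209 for Ces1g. Ces2a (chr8:104734003-104741634), Ces2c (chr8:104847068-104854482), Ces2e (chr8:104926260-104934672) and Ces3a (chr8:105048599-105058414) lie on the plus strand further along. Neighbours in such clusters can share sequence, and the deposited counts come from a method that divides a read among the transcripts it matches. Of the 50-base words of the longest protein-coding transcript of each gene, 42.2% in Ces2c, 30.9% in Ces3a, 22.2% in Ces2a, 17.0% in Ces1c and 11.6% in Ces1b also occurred in a transcript of another gene. The share was between 1.28% and 3.36% in the other 5 genes. Ces2c shared most with the pseudogene Ces2d-ps and Ces3a with Ces3b. Ces1b and Ces1c shared most with each other.

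The longest coding stretches that 2 of these genes have in common are printed to show how much longer than a single 50-base read they are. Per the paper these libraries were read in pairs, and the second read of a pair can lie outside such a stretch. The shared words do not take the second read into account. Capitals mark bases that are identical in both genes, lower case marks the bases just outside, and the bases are those of the first-named gene in GENCODE M21.
Ces1b with Ces1c, 118 bases in exon 14 of 14: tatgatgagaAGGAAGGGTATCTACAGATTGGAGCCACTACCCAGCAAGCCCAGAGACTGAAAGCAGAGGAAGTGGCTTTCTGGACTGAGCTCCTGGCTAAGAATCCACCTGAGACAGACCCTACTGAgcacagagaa
Ces2c with Ces2d-ps, 181 bases in exon 12 of 12: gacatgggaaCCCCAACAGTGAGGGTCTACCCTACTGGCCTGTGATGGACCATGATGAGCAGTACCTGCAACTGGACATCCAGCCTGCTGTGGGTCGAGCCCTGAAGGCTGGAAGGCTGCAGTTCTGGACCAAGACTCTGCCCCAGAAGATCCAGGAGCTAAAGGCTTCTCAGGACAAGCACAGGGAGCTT
Ces3a with Ces3b, 194 bases over exons 4 and 5 of 13: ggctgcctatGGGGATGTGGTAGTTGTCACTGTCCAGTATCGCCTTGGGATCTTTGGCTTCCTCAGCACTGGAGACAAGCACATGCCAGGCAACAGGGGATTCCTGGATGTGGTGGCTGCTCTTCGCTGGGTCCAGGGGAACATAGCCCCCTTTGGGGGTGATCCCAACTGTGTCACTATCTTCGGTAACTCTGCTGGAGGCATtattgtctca
Whole numbers were rare in some genes. The value was whole in 4.17% of libraries for Ces1c, 8.33% for Ces1b, 10.4% for Ces2c, 14.6% for Ces1e and Ces3a, 35.4% for Ces2e and 52.1% for Ces2a, and in 100% for Ces1f. The shared words and the whole values did not rank the genes alike, since Ces1e shared 3.21% of its words and Ces2a 22.2%. Where a value was not whole, fractions of reads had been assigned, and the table does not record which other gene took the rest. Ces2d-ps reached at most 5.18 CPM, and Ces3b ran from 281 to 1082 CPM.

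A few genes carried most of the carboxylesterase signal. Per kilobase of transcript, Ces3a stood at 1395 ± 81.9 CPM (SD, n = 6) in FR Con, and Ces1c, the esterase that liver secretes into mouse plasma, stood at 963 ± 144 CPM per kb. A wide gap followed. Ces1b was at 83.4 ± 12.6, Ces1d at 71.7 ± 48.1, Ces1f at 61.1 ± 47.9 and Ces2a at 60.7 ± 15.3 CPM per kb, and the ranges of these neighbours overlapped. Ces2e was at 42.2 ± 8.40, Ces1e at 31.4 ± 25.0, Ces1g at 23.1 ± 10.9 and Ces2c at 15.1 ± 5.44 CPM per kb, again with overlapping ranges from each gene to the next. In FR PB the order changed in the middle: Ces3a (1427 ± 332) and Ces1c (1293 ± 85.7) still led with overlapping ranges, followed by Ces2a at 653 ± 117 and Ces1d at 243 ± 67.6 CPM per kb. Ces1f at 103 ± 25.4 and Ces1b at 102 ± 5.38 CPM per kb came next, and all other genes were below them. Ces2a thus moved from the middle of the order to the place behind Ces3a and Ces1c.

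**Figure D1:**
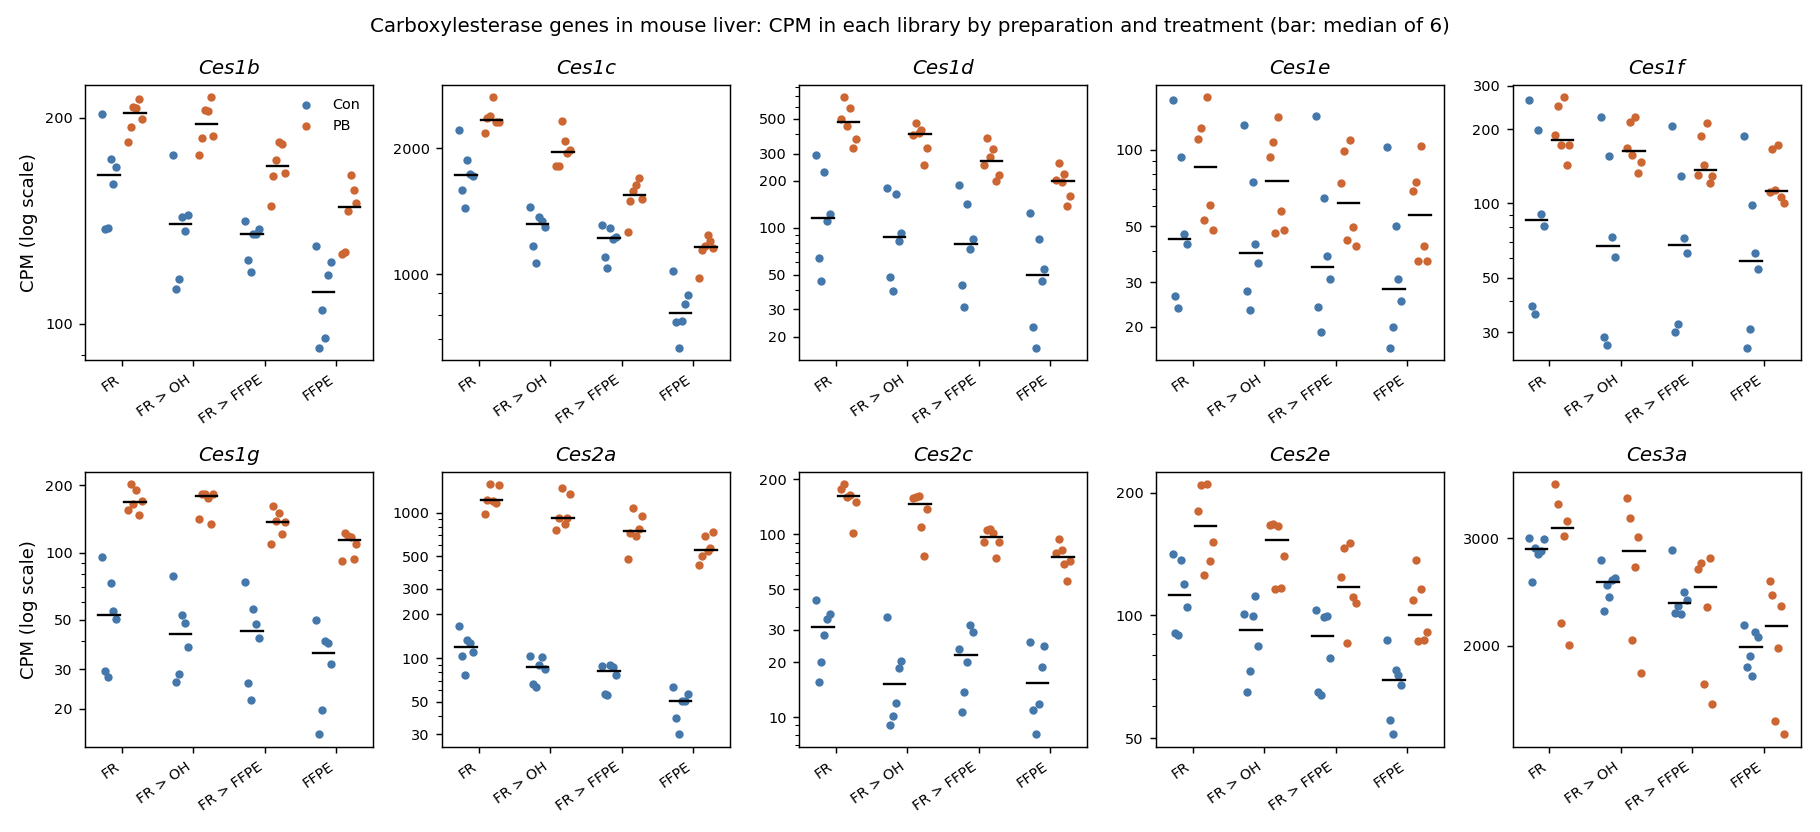
CPM of each carboxylesterase gene (log axis, 1 panel per gene) in each of the 48 libraries, by preparation along the x axis and treatment by colour, with a bar at the median of 6 mice. Ces2a, Ces2c, Ces1d and Ces1g show PB and Con points that do not overlap in any preparation, and Ces3a shows overlap in all 4.

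The PB question was whether the drug changed each gene, and whether the answer depended on how the tissue was kept. A gene was called where edgeR's quasi-likelihood test gave a Benjamini-Hochberg adjusted p under 0.05 with a fold change of at least 2. In FR, 4 of the 10 genes were called, all of them higher in PB (Ces2a, Ces2c, Ces1d and Ces1g), against 2.0% of all genes called in either direction and 1.74% called higher. The same 4 genes were called higher with FFPE (background 1.92%, and 1.65% higher), with FR > FFPE (1.87% and 1.71%) and with FR > OH (2.42% and 2.12%). By adjusted p alone, Ces1b, Ces1c and Ces2e joined them in each preparation, giving 7 of 10 against 8.45% of all genes in FR, 6.63% with FFPE, 7.23% with FR > FFPE and 12.2% with FR > OH. The median log2 fold change of the 10 genes in FR was 0.66, and that of all genes tested was 0.00.

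Ces2a, which can hydrolyse acylglycerols, had the largest response of the 10. It was between 77.02 and 165 CPM in FR Con (median 118) and between 975 and 1566 CPM in FR PB (median 1214). In FFPE it was between 30.0 and 63.03 CPM in Con (median 50.7) and between 437 and 738 CPM in PB (median 554). Every PB mouse was far above every Con mouse, although FFPE levels were lower in both arms. The fold change was 10.7 in FR (log2 3.43, SE 0.20, adjusted p = 8.7e-18) and ran from 10.3 to 12.3 over the 4 preparations.

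Ces2c, a liver esterase with acylcarnitine hydrolase activity, ranged from 15.5 to 44.0 CPM in FR Con (median 31.2) and from 102 to 188 CPM in FR PB (median 162). FFPE gave 8.05 to 25.6 CPM in Con (median 15.3) and 55.3 to 94.4 CPM in PB (median 75.4). The arms were apart in all 4 preparations. The fold change was 5.29 in FR (log2 2.40, SE 0.27, adjusted p = 3.7e-09) and between 4.41 and 7.63 over the preparations, the highest in FR > OH. The pseudogene Ces2d-ps, which shares the stretch printed above, stayed at or under 5.18 CPM in every library.

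Ces1d is the hepatic triacylglycerol hydrolase, which takes part in the assembly of very low density lipoproteins. It ran from 45.5 to 292 CPM in FR Con (median 116) and from 326 to 687 CPM in FR PB (median 477). In FFPE it ran from 17.1 to 124 CPM in Con (median 50.2) and from 138 to 260 CPM in PB (median 200). The highest Con mouse came close to the lowest PB mouse without reaching it in either preparation. The fold change in FR was 3.40 (log2 1.76, SE 0.40, adjusted p = 0.00217), and over the preparations it was 2.96 to 3.74.

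Ces1g, an esterase also called Es-x that bears on hepatic lipid handling, was at 27.6 to 95.9 CPM in FR Con (median 52.5) and at 147 to 203 CPM in FR PB (median 168). FFPE gave 15.4 to 49.8 CPM in Con (median 35.6) and 91.7 to 122 CPM in PB (median 114). No Con mouse reached a PB mouse. The fold change in FR was 3.12 (log2 1.64, SE 0.25, adjusted p = 7.01e-06), with 3.08 to 3.68 over the preparations.

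Ces1c and Ces1b showed small shifts that passed the test by adjusted p but not by fold. Ces1c moved from 1437 to 2208 CPM in FR Con (median 1729) to 2169 to 2644 CPM in FR PB (median 2340), a log2 fold change of 0.42 (SE 0.10, adjusted p = 0.00218). Its arms were apart in FR > OH and overlapped in the other preparations. Ces1b had a log2 fold change of 0.30 in FR (SE 0.09, adjusted p = 0.0348) and of 0.30 to 0.50 over the preparations. Ces2e had a log2 fold change of 0.57 in FR (SE 0.16, adjusted p = 0.0155) and of 0.51 to 0.71 over the preparations. Leaving out 1 mouse at a time, the adjusted p of Ces1b in FR reached 0.109 and that of Ces2e 0.0561 in FR and 0.126 in FR > FFPE.

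Ces1e, also known as egasyn, binds beta-glucuronidase and keeps it in the endoplasmic reticulum. Ces1e and Ces1f did not pass the test in any preparation. The log2 fold change of Ces1f in FR was 0.76 (SE 0.45, adjusted p = 0.343; 95% interval -0.15 to 1.67) and that of Ces1e was 0.51 (SE 0.46, adjusted p = 0.584; -0.42 to 1.43). These intervals include no change and fold changes above 2. One Con mouse, 21C, had the highest Ces1f and Ces1e of the Con mice in all 4 preparations. Without that mouse Ces1f was also called, with a log2 fold change of 1.17 in FR (adjusted p = 0.0468) and 1.24 in FFPE (adjusted p = 0.0476), so that 5 of 10 genes were called in each preparation. Leaving out any other mouse kept the count at 4.

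Ces3a, the most abundant of the 10 per kilobase, also known as Es31, was at 2541 to 2999 CPM in FR Con (median 2881) and 2007 to 3681 CPM in FR PB (median 3117). Its log2 fold change in FR was 0.03 (SE 0.15, adjusted p = 0.939; 95% interval -0.27 to 0.34), and the interval excludes a fold change of 2 in either direction. The direction is not settled, since it turned to -0.022 when the genes above 1% of any library were left out of the total. Over the preparations the values ran from -0.07 to 0.11.

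**Figure D2:**
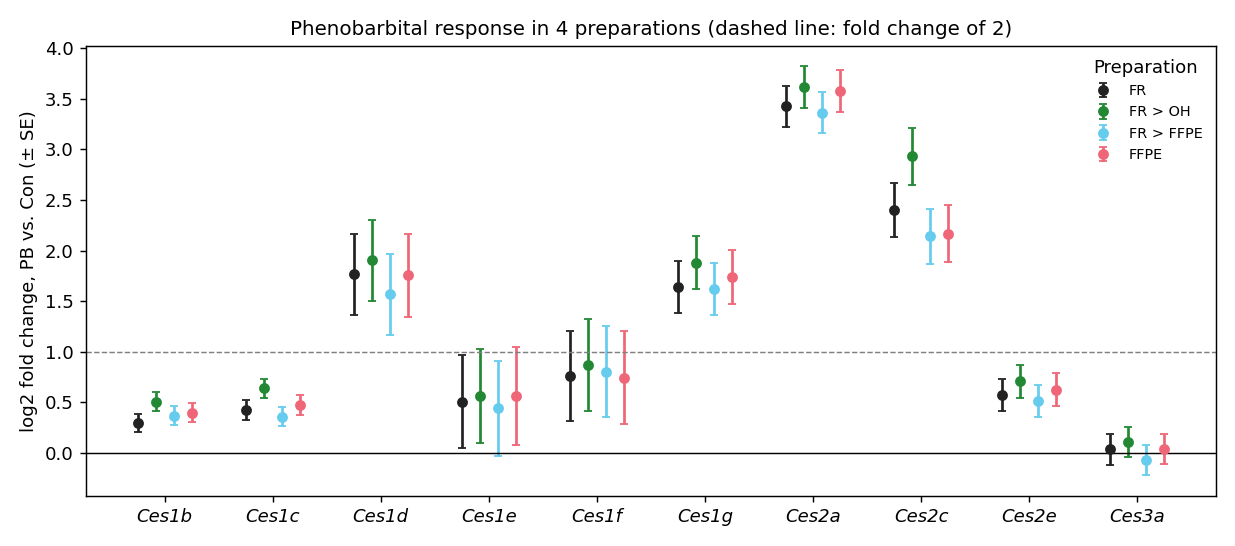
Log2 fold change of PB against Con (y axis, error bars ± SE from the quasi-likelihood fit) for each carboxylesterase gene, with 1 colour per preparation. Ces2a sits between 3.36 and 3.61 in all 4 preparations, Ces3a between -0.07 and 0.11, and the dashed line marks a fold change of 2.

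The genes whose PB and Con ranges were apart were counted as well. They were 4 of 10 in FR, where 4.2% of all genes were higher in PB without overlap, 4 in FFPE (2.12%), 5 in FR > FFPE (3.19%, with Ces1b added) and 7 in FR > OH (4.26%, with Ces1b, Ces1c and Ces2e added). The median sum of the hepatocyte markers went the other way from these genes, with 76642 CPM in FR Con and 58637 CPM in FR PB. The ranges overlapped (63234 to 98099 and 47567 to 86162 CPM). By adjusted p 1 of the 6 markers was lower in FR (median log2 fold change -0.20). The part of these markers in the result was not tested. The library titles carry an L number, which is not explained in the sources used here and differed between the arms. With a term for it, Ces2a, Ces2c, Ces1d and Ces1g were again the genes called in FR, FFPE and FR > OH. Such a fit in effect compares 1 arm with only those mice of the other arm that share its L number. These were PB mice 18B and 18D in FR and PB mice 18B, 18D, 20B and 20D in FFPE. In FR > OH they were Con mice 8C, 8D and 90C. In FR > FFPE all Con libraries carry L3 and all PB libraries L4, so L number and treatment cannot be told apart there.

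The upstream sequences of 3 of the 4 called genes could be read from RefSeq (GRCm38.p6), and Ces1d was not in that table, nor were Ces1f and Ces3a. They are shown so that the 250 bases before the start of Ces2a and Ces2c, the genes with the largest responses, can be set beside those of Ces1g. Each is written 5′ to 3′ on the strand of its gene, and capitals mark matches on either strand to the motifs named after them.
Ces2a, chr8:104733753-104734002, plus strand: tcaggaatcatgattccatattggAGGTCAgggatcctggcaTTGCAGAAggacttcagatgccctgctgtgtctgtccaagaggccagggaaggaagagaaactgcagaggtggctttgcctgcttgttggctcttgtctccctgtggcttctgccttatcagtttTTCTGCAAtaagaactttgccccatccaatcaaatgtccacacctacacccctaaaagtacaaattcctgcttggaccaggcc
Ces2c, chr8:104846818-104847067, plus strand: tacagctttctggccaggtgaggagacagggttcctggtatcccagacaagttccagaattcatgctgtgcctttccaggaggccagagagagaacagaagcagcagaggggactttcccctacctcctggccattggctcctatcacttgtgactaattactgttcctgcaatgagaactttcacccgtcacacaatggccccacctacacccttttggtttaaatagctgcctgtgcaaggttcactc
Ces1g, chr8:93337210-93337459, minus strand: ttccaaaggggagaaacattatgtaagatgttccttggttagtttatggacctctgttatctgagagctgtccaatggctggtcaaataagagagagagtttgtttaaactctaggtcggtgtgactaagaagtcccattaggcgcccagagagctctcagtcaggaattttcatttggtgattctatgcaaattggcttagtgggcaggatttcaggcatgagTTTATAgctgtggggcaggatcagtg
The motifs searched, on both strands, were the direct repeat with a spacer of 4 that CAR and related receptors can bind (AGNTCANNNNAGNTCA), its single copy AGGTCA, the C/EBP motif TTGCNNAA and the TATA box TATAAA. Windows of 300 bases, from 250 before to 50 after the start, were available 8 times for 7 of the genes, with 2 overlapping windows for Ces1b. The direct repeat occurred in 0 of the 7 genes and in 0.125% of all 32851 windows. AGGTCA occurred in 1 of 7, Ces2a, at -226 relative to the start (16.3% of all windows), and TATAAA in 1 of 7, Ces1g, at -26 (13.6%). TTGCNNAA occurred in 4 of 7 genes, Ces1b, Ces1c, Ces2a and Ces2e, against 10.8% of all windows, and the overlapping Ces1b windows held the same match. These are matches of letters in a short window and no record of binding.

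The second question was how preservation changed the measured levels. The carboxylesterases were lower in FFPE than in FR, in both treatment arms. Counted over Con and PB together, 3 of 10 genes were called lower in both (Ces1c, Ces1d and Ces2a), against 10.8% of all genes called in either direction and 1.28% called lower. Which genes were called depended on the fit. With a term for the L number Ces2c and Ces2e were called in both arms and none of these 3 was. All FR Con libraries carry L2 and all FFPE Con libraries L1, so in Con L number and preparation cannot be told apart. The term for L1 against L2 came from FFPE PB alone, mice 75C and 80B (L2) against the other mice (L1). Under TMM and under DESeq2 Ces2c was called in both arms beside Ces1c, Ces1d and Ces2a. Without the genes above 1% of any library Ces1d and Ces2a were called. With total reads as library size or with limma on the deposited log2 CPM all 10 were. By adjusted p alone 8 of 10 passed, all lower, against 51.2% of all genes in either direction and 11.7% lower. All 10 genes were lower in FFPE than in FR in each of the 12 mice. The genes of a library share 1 total and are not replicates. The share of all genes lower in every mouse was not counted. The median log2 fold change of the 10 genes was -0.75 in Con and -0.68 in PB, while the median of all genes tested was 0.32 in both arms. On this scaling the center of all genes was thus above 0, and relative to it the carboxylesterases were lower still. The 6 hepatocyte markers moved the same way, with 5 of 6 lower by adjusted p and a median log2 fold change of -0.94 in Con and -0.86 in PB. Of 4 Kupffer cell markers 3 were lower too (median -0.78 in Con and -0.63 in PB). Of 4 endothelial markers 0 were lower and 1 was higher (median 0.23 in Con and 0.10 in PB). The part of these cell types in the result was not tested.

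Ces1c, Ces1d and Ces2a had the largest shifts in Con. Ces1c was at 668 to 1018 CPM in FFPE Con (median 811), below the 1437 to 2208 CPM of FR Con without overlap, with a log2 fold change of -1.09 in Con and -1.04 in PB (adjusted p of 1.11e-12 or less in both arms). Ces2a had log2 fold changes of -1.30 in Con and -1.14 in PB, and its FFPE and FR ranges were apart in both arms. Ces1d had -1.30 in Con and -1.31 in PB (adjusted p between 0.00389 and 0.00517), with ranges that overlapped in Con and were apart in PB. In the main fit Ces2c crossed a fold change of 2 in PB alone, with -0.83 in Con and -1.06 in PB. The difference between those arms was -0.23 (SE 0.38, adjusted p = 1.0). Under TMM (-1.11, adjusted p = 0.000937) and DESeq2 (-1.12, adjusted p = 0.000316) Ces2c crossed it in Con too.

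The remaining genes fell by less than 2-fold or did not pass. Log2 fold changes in Con were -0.76 for Ces1g, -0.75 for Ces2e, -0.57 for Ces1b and -0.53 for Ces3a, with adjusted p of 0.0209 or less in both arms. Ces1e (-0.67, adjusted p = 0.228) and Ces1f (-0.62, adjusted p = 0.247) did not pass in Con or PB. Because the 4 libraries of a mouse come from the same animal, a fit with the mouse as a block was also made. It called the same 3 genes in both arms (background 11.1% in either direction). By adjusted p alone all 10 passed (background 59.4% in either direction). In Con, Ces1e was then at -0.65 (SE 0.06, adjusted p = 5.76e-13) and Ces1f at -0.59 (SE 0.06, adjusted p = 2.62e-12).

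**Figure D3:**
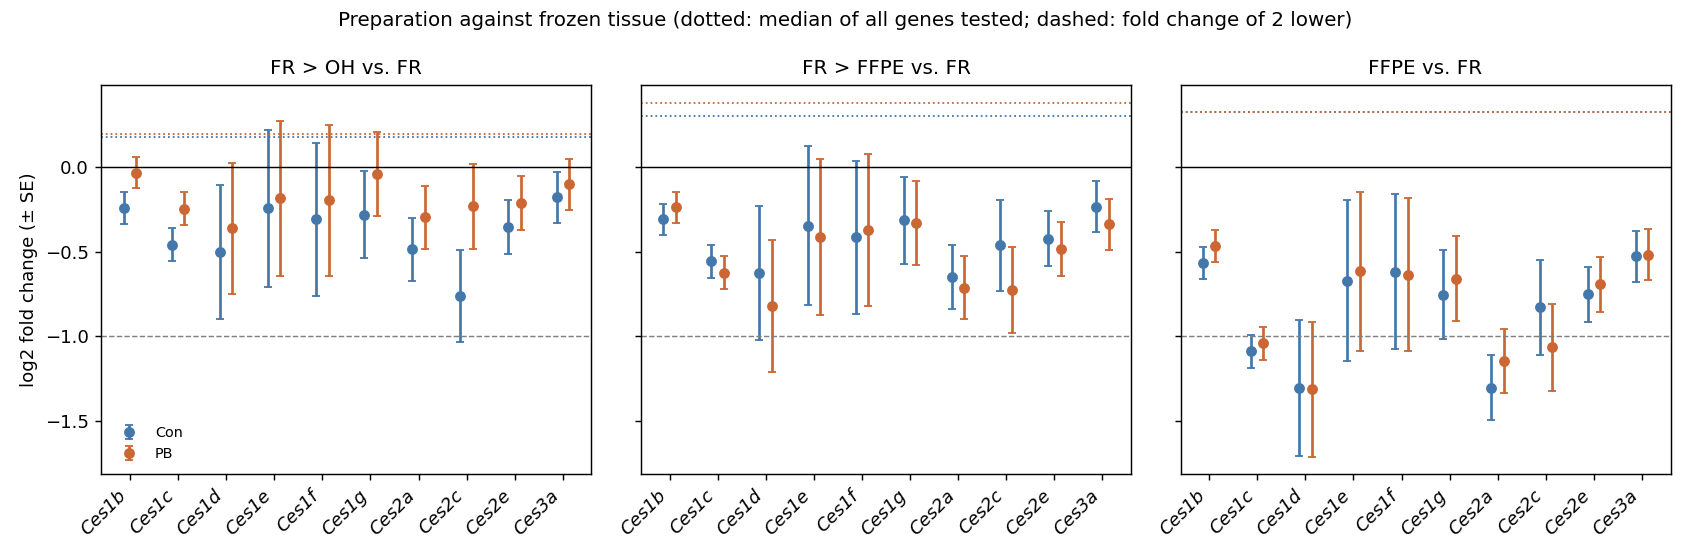
Log2 fold change of each paraffin preparation against FR (1 panel per preparation, error bars ± SE) for each carboxylesterase gene in Con and PB, with a dotted line at the median of all genes tested and a dashed line at a fold change of 2 lower. All 10 genes sit below 0 in FFPE, and the shifts are smaller in FR > FFPE and FR > OH.

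Freezing before fixation came with smaller shifts. In FR > FFPE against FR, 0 of 10 genes were called over both arms (background 3.99%). By adjusted p alone 4 passed in both arms, Ces1b, Ces1c, Ces2a and Ces2e, all lower (background 43.6%). Their largest shift was -0.71 for Ces2a in PB. The backgrounds in this paragraph count genes of either direction, and the share lower alone is not given. The median log2 fold change of all genes was 0.30 in Con and 0.38 in PB, and that of the 10 genes -0.42 and -0.45. With the mouse as a block 0 were called (4.09%) and 10 passed by adjusted p alone (55.4%). In FR > OH against FR, 0 were called (2.56%), and Ces1c alone passed by adjusted p in both arms (31.8%), with -0.46 in Con and -0.25 in PB. With the block 0 were called (2.69%) and 8 passed by adjusted p alone (43.9%). Mouse by mouse, all 10 genes were lower in FR > FFPE than in FR in each of the 12 mice. In FR > OH 114 of 120 pairings of gene and mouse were lower than in FR. The 10 genes of a mouse are not replicates, and all genes were not counted this way.

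FFPE and FR > FFPE share fixative, embedding and extraction kit and differ in whether the tissue was frozen first. They also differ in L number, L1 or L2 against L3 or L4, so freezing and L number cannot be told apart here. Between them 0 of 10 genes were called (0.127%), and Ces1c passed by adjusted p alone in both arms (8.18%), with -0.53 in Con and -0.42 in PB. With the mouse as a block, 0 were called (0.157%) and 10 passed by adjusted p alone (19.6% in either direction), all lower in FFPE. Rn45s was at 22316 to 51274 CPM in FR > FFPE and at 81270 to 127578 CPM in FFPE, and its part in the result was not tested.

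Whether preservation altered the PB response was tested as the difference between the PB responses of a preparation and of FR. None of the 10 genes was called in FFPE, FR > FFPE or FR > OH by edgeR (0 of 10 also at an unadjusted p under 0.05), where 0.0% of all genes were called in each and 463, 288 and 305 of them had an unadjusted p under 0.05. For Ces2a the difference in FFPE was 0.16 (95% interval -0.38 to 0.69) on the log2 scale, for Ces1g 0.10 (-0.63 to 0.82) and for Ces1d -0.01 (-1.15 to 1.13). In FFPE the intervals of Ces1d, Ces1e and Ces1f without the mouse as a block hold a 2-fold difference in either direction. With the block the differences in FFPE were 0.00 for Ces1d (SE 0.07; 95% interval -0.14 to 0.15), 0.06 for Ces1e (SE 0.09; -0.12 to 0.24) and -0.05 for Ces1f (SE 0.08; -0.22 to 0.12), and none of the 10 intervals reached a 2-fold difference, the bounds lying between -0.52 and 0.33. An unadjusted p under 0.05 was then found for 0 of 10 genes in FFPE, 2 in FR > FFPE, both with a smaller PB response, and 5 in FR > OH, all with a larger one. With the block, 1143, 1164 and 1116 of all 13370 genes had such a p in FFPE, FR > FFPE and FR > OH. The difference largest in size was that of Ces2c in FR > OH, at 0.53 (-0.22 to 1.28). With the block the Ces2c difference was 0.55 (SE 0.13, adjusted p = 0.0473), when 0.277% of all genes passed by adjusted p, and the other 9 genes did not pass in that comparison.

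**Figure D4:**
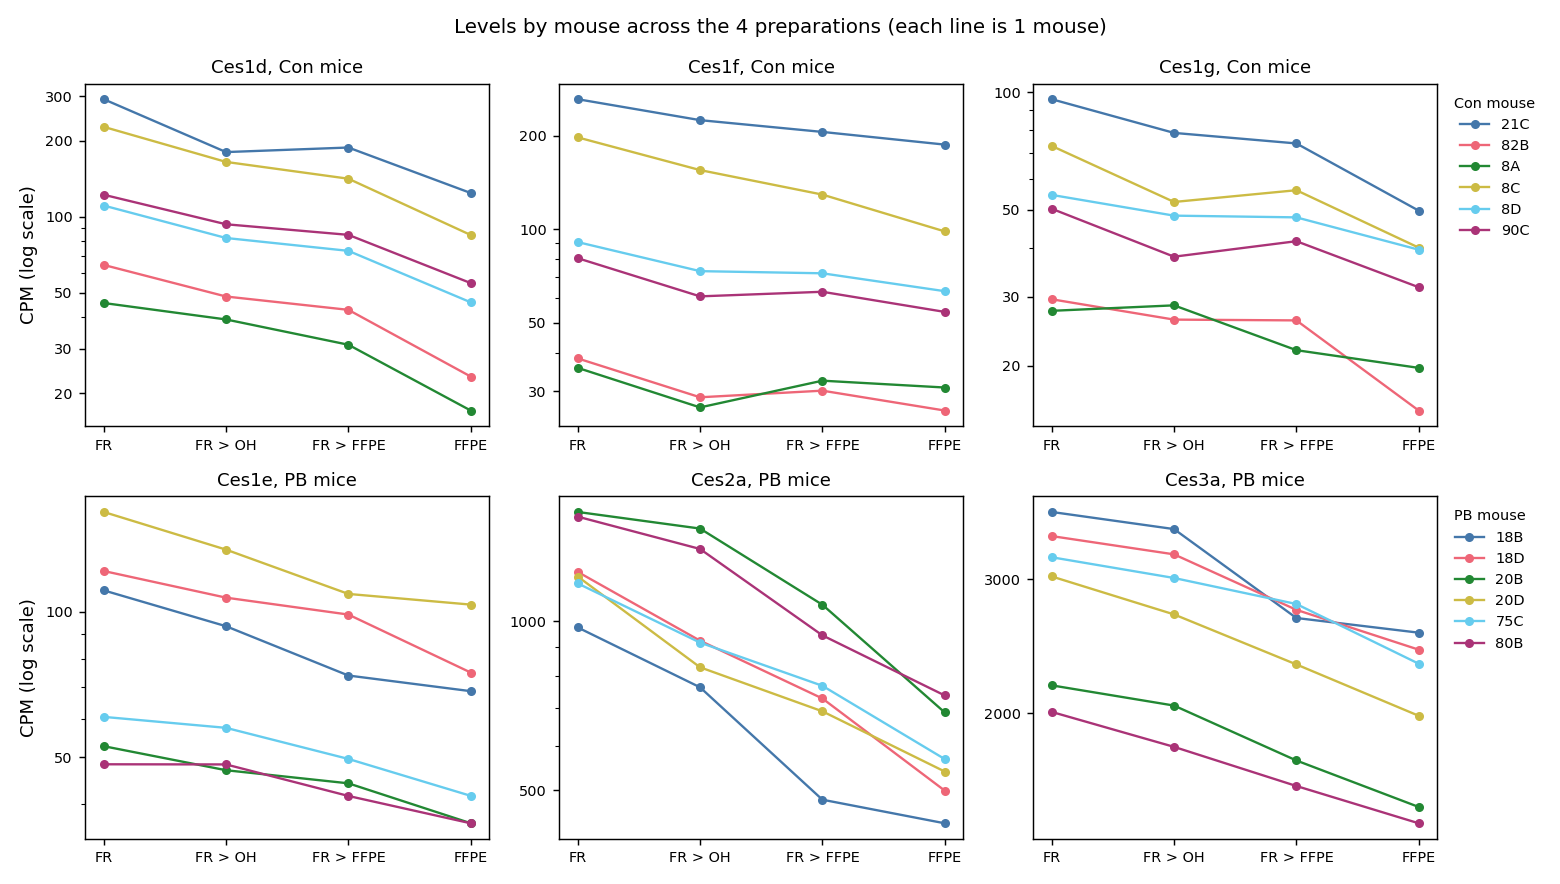
CPM (log axis) of 6 pairs of gene and treatment across the 4 preparations, with 1 line per mouse. Lines of the same treatment run largely side by side with some crossings, with mouse 21C at the top of the Con mice for Ces1d and mice 80B and 20B at the bottom of the PB mice for Ces3a.

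Differences between mice were largely shared by the 4 preparations, although the order of the mice was not fixed. Within a treatment, 72.8% to 99.2% of the variance of log2 CPM around the group means lay between mice, depending on gene and arm. It was 99.2% for Ces1d, 99.0% for Ces1f and 98.8% for Ces1e in Con, the genes with the widest ranges. In FR Con the highest mouse exceeded the lowest 7.36-fold for Ces1f, 6.64-fold for Ces1e, 6.42-fold for Ces1d and 3.47-fold for Ces1g, against 1.18-fold for Ces3a. Mouse 21C was highest for Ces1b, Ces1c, Ces1d, Ces1e, Ces1f, Ces1g and Ces3a in all 4 preparations, and the lowest Con mouse in FR was 8A or 82B for every one of the 10 genes. The Con mouse that was lowest on average over the 4 preparations was lowest in all 4 for Ces1c, Ces1d and Ces2a. It was lowest in 2 of 4 for Ces1f, Ces1g and Ces3a and in 1 of 4 for Ces2e.

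The PB mice had another pattern. Ces3a was at 2007 CPM in mouse 80B and 2175 CPM in mouse 20B in FR, against 3027 to 3681 CPM in the other 4. These same mice had the highest Ces2a, 1537 CPM in 80B and 1566 CPM in 20B, and the lowest Ces1e, 48.4 and 52.8 CPM. Mouse 80B was the lowest PB mouse for Ces3a in all 4 preparations. Ces1d and Ces2c were lowest in mouse 75C in all 4 preparations. The 6 mice of an arm are few, and which mice stand apart was read from these values.

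**Figure D5:**
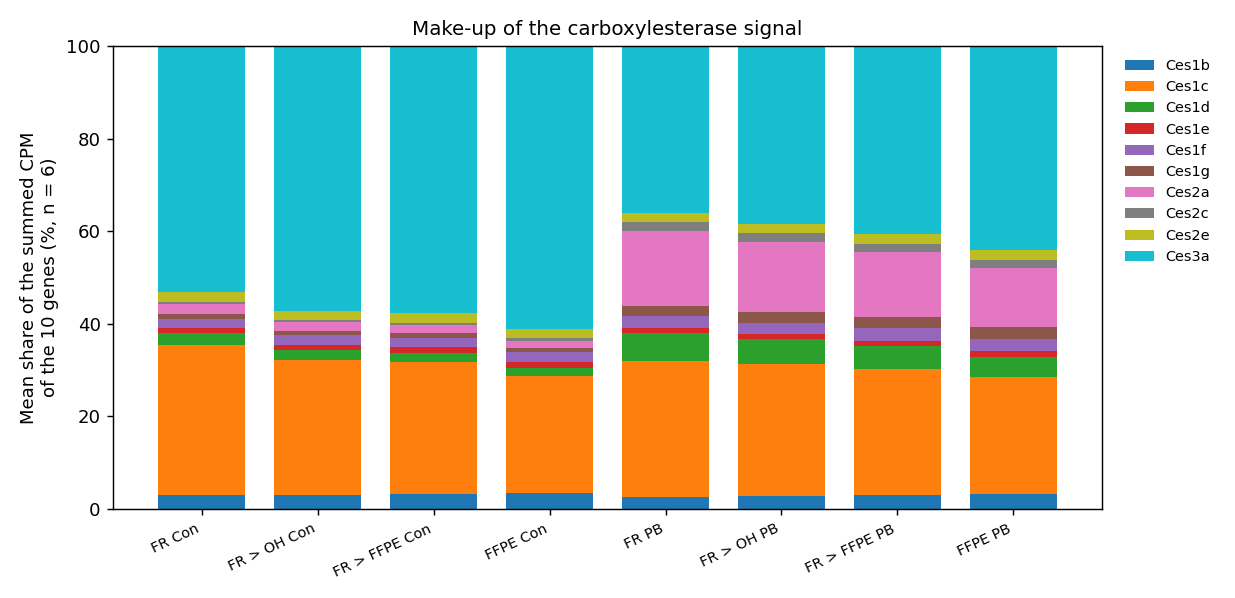
Mean share of each gene in the summed CPM of the 10 carboxylesterase genes (y axis, percent, n = 6) in the 8 groups. The share of Ces3a is 53.1% in FR Con and 36.0% in FR PB, and that of Ces2a 2.17% and 16.2%.

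The make-up of the carboxylesterase signal changed with treatment and with preparation. The 10 genes summed to a median of 5387 CPM in FR Con and 8073 CPM in FR PB, and to 3226 and 4746 CPM in FFPE. Ces3a made up 53.1% ± 5.16 (SD, n = 6) of the sum in FR Con and 36.0% ± 6.45 in FR PB. Ces2a made up 2.17% ± 0.320 and 16.2% ± 4.12, and Ces1d 2.51% ± 1.39 and 6.00% ± 1.24. The share of Ces1c was 32.4% ± 1.51 in FR Con and 25.4% ± 1.18 in FFPE Con, without overlap between those groups. Ces3a had 61.1% ± 4.25 of the sum in FFPE Con, a higher share at a lower CPM, and its range overlapped that of FR Con. These shares compare reads, not molecules, since they are not divided by transcript length.

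Over the 48 libraries the gene most like each carboxylesterase in log2 CPM was searched among 7940 other genes. Ces2a was closest to Cyp3a11 (r = 0.99), Ces1g to Ephx1 (r = 0.97) and Ces2c to Cyp2c50 (r = 0.97). Ces1d was closest to the glutathione transferase gene Gstm6 (r = 0.94), Ces1f to Inmt (r = 0.94), Ces2e to Cyp2d9 (r = 0.93) and Ces1e to Cyp4a12b (r = 0.92). Ces1c was closest to F13b (r = 0.95), Ces1b to Ugt2b36 (r = 0.91) and Ces3a to Cyp2f2 (r = 0.89). The libraries share mice, treatment and preparation, so these values are descriptions.

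The table held 9 other genes with carboxylesterase symbols, and 5 of them passed the filter and were tested (Ces2b, Ces2g, Ces2h, Ces3b and Ces4a). Of these 5, 0 were called in any PB comparison by edgeR, and Ces2g alone passed by adjusted p, with a log2 fold change of 0.42 in FR. Ces3b, the neighbour of Ces3a, was at 281 to 1082 CPM (median 619), Ces2g at 33.1 to 74.7 CPM and Ces4a at 1.78 to 41.5 CPM. Ces1a, Ces2f and Ces5a stayed under 1 CPM in every library. Among 25 tested genes of ester, lipid and epoxide hydrolysis in the liver, the epoxide hydrolase Ephx1 was the 1 called higher in PB in FR (log2 fold change 1.82, adjusted p = 7.26e-11), and 0 were called lower. By adjusted p alone 7 rose, Cmbl at 0.64 after Ephx1 leading them, and 2 fell, Lipe at -0.42 and Pon2 at -0.31. In FFPE against FR, 3 of the 25 were called lower in both arms, Aadac (-1.40 in Con), Esd (-1.17) and Pon1 (-1.08), and 10 were lower and 3 higher by adjusted p alone, the higher ones led by the triacylglycerol lipase gene Pnpla2 (0.73 in Con) and the monoacylglycerol lipase gene Mgll (0.72).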

How the data were processed

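Per the labels, total RNA libraries of 48 liver portions were stranded and depleted of ribosomal RNA. The authors converted base calls with CASAVA 1.8.2, aligned reads to GRCm38/mm10 with STAR 2.5.3a and deposited estimated counts per RefSeq gene from the expectation-maximization step of Partek Flow, which need not be whole (92.85% were, within 0.01). They also deposited log2 CPM values, scaled to all reads as the ratio of both tables shows, used here in 1 alternative.

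Counts were rounded, and 13370 of 24543 genes were kept, those whose geometric mean passed 1 count after an offset of 0.0001 was added. edgeR 4.0.16 in R 4.3.3 fitted all 8 groups with the total over kept genes as library size, and p-values were adjusted over all kept genes. Calls needed an adjusted p under 0.05 together with at least a 2-fold change. For a preservation effect over Con and PB, the call had to hold in both. The replicates are separate mice. The members and lists were chosen with earlier results of these data known. All members are named, those called with full values, together with the listed esterase genes and, per member, the most correlated other gene with a mean of at least 10 CPM.

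The mouse named in the sample titles paired the libraries: deviations from group means correlated above 0.1 in 72 of 72 pairs of libraries of the same mouse (lowest r 0.551, median 0.78), and the median between different mice was -0.15. Simulated data for PB vs. Con in FR (13370 genes) were judged by adjusted p alone, without the fold threshold. Of 50 genes raised 2-fold 88% were found, of 50 lowered 2-fold 84%, and 100% at 4-fold, and 5.6% of genes passing were false. The median estimates at 2-fold were 0.91 and -1.00 on the log2 scale, so many of these genes would miss the fold threshold. The simulation gave every gene the same spread and drew the 4 libraries of a mouse independently, unlike these data. Alternatives were TMM, DESeq2 1.42.0, limma 3.58.1, other totals and filters, a term for the L number, the mouse as a block and leaving out each mouse. At the lowest total, 1 CPM is 4.95 counts. Coordinates are those of the table, with ends moved by 1 base to match RefSeq (the table's stop was 1 past the RefSeq end in 63.3% of 23621 genes compared and equal in 3.38%). The libraries of the series' other studies were not analysed here.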

Additional observations from a re-analysis of the deposited data

Results flagged for a closer look

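With 6 mice in a group, the highest or lowest value was set against the group's range for each of the 10 genes in each of the 8 groups. Of these 80 sets, 2 held a value whose gap to its neighbour passed Dixon's 95% limit, where chance gives about 1 in 20. Both were Ces3a. Mouse 82B was low in FR Con at 2541 CPM, with the next mouse at 2830 CPM and a gap of 0.63 of the range. Mouse 21C was high in FR > FFPE Con at 2870 CPM, with the next mouse at 2454 CPM and a gap of 0.68 of the range.

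The PB response of Ces2c was larger in FR > OH than in FR by 0.55 on the log2 scale (SE 0.13, edgeR adjusted p = 0.0473) when the mouse was a block in the fit. Without the block the same difference was 0.53 (SE 0.37, adjusted p = 1.0).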

How the results depend on the processing

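The calls of Ces1d, Ces1g, Ces2a and Ces2c for PB in each preparation were kept under TMM, DESeq2, the other totals, limma, both filters and, where it could be fitted, the term for the L number, with Ces1f added in FR > OH by limma (1.38, adjusted p = 0.0381). By adjusted p alone 7 genes passed in FR, FFPE, FR > FFPE and FR > OH in the main fit, but the smaller responses moved with the setting. In FR > FFPE 5 passed under TMM, without Ces1c and Ces2e. There 6 passed, without Ces2e, under DESeq2 and when the genes above 1% of any library were left out of the total. In FR 6 passed, without Ces1b, with that total, with total reads and with limma. Leaving out each mouse in turn, an alternative chosen after seeing the data, gave 4 to 5 called for PB in each preparation, 5 only without mouse 21C. Preservation counts moved with the scaling. For FFPE against FR, TMM and DESeq2 added Ces2c to Ces1c, Ces1d and Ces2a as genes called in both arms. FFPE against FR gave 10 with total reads as library size, 10 when limma was run on the log2 CPM deposited by the authors and 8 by adjusted p alone, against 3. FR > FFPE against FR gave 2, 1 and 4 under those settings, FR > OH against FR gave 1 by adjusted p alone, and FFPE against FR > FFPE gave 1, 1 and 1, each against 0. Total reads include reads outside genes and shift the median of all genes to -0.64 in Con (members -1.71), and TMM puts it at 0.04 (members -1.03).

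Of 121 results, 115 kept their direction and call under TMM and 115 under DESeq2, 118 without genes above 1% of any library, 96 with total reads, 96 with limma, and 121 under either filter. The term for the L number kept 44 of 50, and for FFPE against FR it ended the calls of Ces1d in Con (-1.87, adjusted p = 0.0517) and of Ces1c (-0.94, 0.000318) and Ces2a (-0.75, 0.044) in PB, so that Ces2c (-1.18 in Con) and Ces2e (-1.08 in Con and -1.13 in PB) became the 2 genes called in both arms. In Con, L number and preparation coincide in that comparison, so the term rests on differences between FFPE PB mice. Without genes above 1% of any library the count was 2, since Ces1c fell to -0.97 in PB, and Ces2c in PB fell to -0.99. Of 81 results with the mouse as a replicate block, 81 kept their direction and call, among them FFPE against FR at 3 genes and 0 in the other preservation comparisons. The mean summed CPM of the 10 genes in FR Con, 5423, became 7407 without the genes above 1% and 2598 with total reads. Directions reversed for Ces3a in PB against Con in FR (-0.022 without the genes above 1%) and, in FFPE against FR > FFPE in Con without the FR > FFPE Con library of mouse 21C, for Ces1e (0.21) and Ces1f (0.23), none past the test. The causes of these moves were not tested. Ces2c had the fewest counts of the 10 genes, 42 in its lowest library.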
